A study of Drosophila ananassae with 54 samples.

Results

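The genes described here are 40 of the 14365 genes of Drosophila ananassae counted by RNA-seq, those whose transcript level at 22 °C lay furthest below both cold-tolerant lines, in all 3 tissues sampled, in the cold-sensitive line SlowBKK. They were chosen from measured values, the 27 control libraries alone. The level of a gene was expressed as CPM, its count per M counts of its library. A gene was eligible where the mean control level of FastBKK and of KATH was at least 5 CPM in every tissue, which 5752 genes met. For each tissue the mean control level of SlowBKK, on the log2(CPM + 0.5) scale, was subtracted from the lower of the FastBKK and KATH means, and the smallest of the 3 tissue differences was the score. The 40 genes with the highest score are the members. Their low level in SlowBKK at 22 °C is therefore a product of the choice and is described without a test. The main tests were made only in the 10 °C libraries, which the choice did not use.

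Adult males of 3 lines were studied. SlowBKK, from Bangkok and cold sensitive, and FastBKK, from Bangkok and cold tolerant, were each a pool of 4 isofemale lines, and KATH, from Kathmandu and cold tolerant, was a pool of 3. Cold-acclimated flies spent 4 days at 10 °C from the day after eclosion and then had a 90 min recovery, whereas control flies spent the same 4 days at 22 °C, so acclimation and recovery cannot be told apart. Hindgut and Malpighian tubule libraries pooled 60 individuals and body libraries 10, with a different RNA extraction kit for the body, and each of the 18 combinations of line, temperature and tissue had 3 libraries. The labels give no separate culture or day for a library, so p-values measure the spread between these pools. Each line is 1 pool, so a difference between lines is a difference between 3 particular pools and not an average over sensitive or tolerant stocks.

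Malpighian tubules secrete the primary urine of insects and the hindgut reabsorbs ions and water from it, and loss of this balance is a known part of chill injury in flies. Isofemale lines founded from separate wild females carry different alleles, and an allele in a gene's own regulatory sequence can alter its transcript level in many tissues together. Transcript level in a bulk tissue is a share of all RNA, so fewer cells that express a gene and less RNA per cell cannot be told apart. The deposited table names these genes by annotation symbol and FlyBase identifier only, and none of them matched the gene reference on hand, so no function, protein or sequence is given for any member and the tissues were not checked against marker genes.

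Libraries held 30.7 to 48.8 M counts (median 34.3 M). One control library stood apart. In FastBKK control hindgut replicate 3 the median level of 795 genes restricted to the body was 5.31% of their body level, against at most 0.399% in the other hindgut libraries. Those 795 genes had a median under 1 CPM in hindgut and in tubule, whereas members needed control means of at least 5 CPM there. That none of the 40 members is among them (0 of 40) therefore cannot show that members were free of body RNA. The part of body carry-over in the hindgut level of the members was not tested. Without that library the rule chose 34 of the 40 again. Among the tubule libraries, KATH cold replicate 4 held 1.40% and FastBKK cold replicate 1 held 0.775% of the hindgut level of 283 genes found in the hindgut and not in the tubule, and 1 member, GF19633, is among those genes. The 283 genes had a tubule median under 1 CPM, so members above that level could not be among them. Hindgut carry-over into such members was not tested.

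The scores fell off steeply after the first few members. The highest, 0.91 log2 units, belonged to GF20600 (FBgn0097606, scaffold 12913), and the next, 0.88, to GF27226 (FBgn0274449, scaffold 13337). A score of at least 0.5 was reached by 5 members and one of at least 0.3 by 12, and the other 28 lay below 0.3. The last member, GF21900 (FBgn0098900, scaffold 12929), scored 0.2094, and the first gene left out, GF22585 (FBgn0099579, scaffold 13248), scored 0.2070, so membership at the lower end rests on a 1.16-fold difference in at least 1 tissue. The body set the score for 20 members, the hindgut for 13 and the tubule for 7. The median member lay 0.39 log2 units below the lower tolerant line in the control hindgut, 0.48 in the control tubule and 0.30 in the control body. When the rule was run again on TMM-scaled values (library sizes corrected for composition) 31 of the 40 were chosen again, and leaving out each control library in turn kept between 33 and 39. With the minimum lowered to 1 CPM more genes could enter and 15 were kept. Under all 31 settings 9 members were chosen: GF20600, GF27226, GF27958, GF12302, GF12220, GF12842, GF14042, GF17778 and GF11958.

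Control levels of the members ran from low to high. In the control tubule the SlowBKK means ranged between 0.0440 CPM for GF19633 and 3768 CPM for GF17562 (FBgn0094580, scaffold 13340), and in the control body between 5.91 CPM for GF15789 and 416.1 CPM for GF12155. Per kilobase of gene length the highest control level in SlowBKK was 761.2 CPM per kb in the hindgut (GF14155), 2769 CPM per kb in the tubule (GF17562) and 936.6 CPM per kb in the body (GF12155).

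The members are short genes. Their lengths ranged from 325 to 2466 bases with a median of 1093, against a median of 1959 over the 5752 eligible genes, and 37 of the 40 lay under that median. Line differences also moved with length over all eligible genes at 22 °C. Eligible genes shorter than the members' median (1160 genes) had median log2 differences, SlowBKK minus FastBKK, of -0.10, -0.11 and -0.08 for hindgut, tubule and body. The 4592 longer ones had -0.03, -0.03 and 0.05. Against KATH the shorter genes had medians of -0.07, -0.06 and -0.09 and the longer ones 0.0033, -0.04 and 0.06. At 10 °C this order was turned round in the hindgut and the body. The shorter genes had medians of 0.08 and 0.10 there against FastBKK and 0.12 and 0.09 against KATH, and the longer ones -0.02 and -0.0046 against FastBKK and 0.0015 and 0.07 against KATH. In the tubule at 10 °C the shorter genes had medians of -0.01 against FastBKK and 0.04 against KATH, beside 0.09 and 0.04 for the longer ones. The part of length in the choice of members was not tested.

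The members lay on 11 scaffolds. Scaffold 13266 held 11 (27.5% of members, 20.2% of eligible genes), scaffold 13337 held 10 (25.0% and 19.2%), scaffold 12916 held 6 (15% and 13.0%) and scaffold 13340 held 4 (10.0% and 19.9%), and the remaining 9 were spread over 7 scaffolds. Gene coordinates were not used here, so neighbours among them were not looked for.

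The first question at 10 °C was how many members were again lower in SlowBKK, in libraries the choice had not seen. Each tissue's 9 cold libraries were fitted by themselves with edgeR over all genes, and a member was called at an adjusted p under 0.05. All 40 members passed the expression filter in all 3 tissues. In the hindgut 13 members were lower in SlowBKK than in FastBKK, where 5.74% of all 10982 tested genes were lower, and 0 were higher (3.95% of tested genes). Against KATH 10 hindgut members were lower, beside 6.01% of tested genes, and 2 were higher, beside 7.46%. Lower than both lines were 7 hindgut members, beside 1.89% of tested genes and 1.65% of eligible ones, and 0 were higher than both (2.03% of tested genes).

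In the tubule 11 members were lower in SlowBKK than in FastBKK (4.15% of 9744 tested genes were lower) and 2 were higher (3.75%). With no scaling beyond the library total the first count was 7, and calls over all genes split into 285 lower and 538 higher, against 404 and 365 with TMM scaling. Against KATH 7 tubule members were lower (6.23%) and 1 was higher (6.36%). Lower than both lines were 2 tubule members, GF17778 and GF10850, where 1.46% of tested and 1.86% of eligible genes were, and higher than both was 1, GF14042 (1.82% of tested genes). In the body 16 members were lower than in FastBKK (10.5% of 13259 tested genes) and 1 was higher (10% of them). Against KATH 17 body members were lower (13.2%) and 1 was higher (12.8%), and with no scaling the calls over all genes were 1090 lower and 2655 higher, against 1750 and 1693. Lower than both lines were 10 body members, where 3.97% of tested and 4.05% of eligible genes were, and 0 were higher than both (4.47%).

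Single libraries moved the counts of the dissected tissues. Without SlowBKK replicate 1 or 2 or FastBKK replicate 4, the 13 hindgut members lower than in FastBKK became 7, 8 and 8. The 10 lower than in KATH became 6 without SlowBKK replicate 2 or 4 and 4 without KATH replicate 1 or 3. The 7 lower than both became 4 without SlowBKK replicate 2 or 4, 2 without KATH replicate 1 or 3 and 3 without KATH replicate 4. The 11 tubule members lower than in FastBKK became 5, 3 and 3 without SlowBKK replicate 2, 3 or 4, 4 and 5 without FastBKK replicate 3 or 4, and 5 without KATH replicate 1 or 3. The 7 lower than in KATH became 3 and 2 without SlowBKK replicate 3 or 4, 11 without FastBKK replicate 1, and 2 and 3 without KATH replicate 1 or 3. The 2 lower than both became 4 without FastBKK replicate 1 and 1 without FastBKK replicate 3 or 4, KATH replicate 1 or 3, or SlowBKK replicate 3 or 4. Body counts moved by less than 1.5 times whichever library was left out.

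The sizes of the differences were mostly modest. The median log2 difference of the 40 members at 10 °C, SlowBKK minus FastBKK, was -0.37, -0.30 and -0.22 for hindgut, tubule and body. SlowBKK minus KATH gave -0.34, -0.33 and -0.26. Over all tested genes the same medians lay between -0.01 and 0.02. On mean CPM, with no test, SlowBKK was the lowest line for 30 members in the cold hindgut, 26 in the cold tubule and 23 in the cold body, beside 34.6%, 26% and 24.6% of eligible genes. SlowBKK was lowest in all 3 cold tissues for 19 members, in 2 for 7, in 1 for 8 and in none for 6. The share of eligible genes lowest in all 3 cold tissues was not counted, and the shares of single tissues do not give it. On TMM-scaled values, every SlowBKK cold library lay below every FastBKK and KATH library for 13 hindgut members (6.86% of tested genes). This held for 13 tubule members (6.55%) and for 14 body members (8.45%). With CPM on the column sum the counts were 12, 11 and 11, beside 693 of 10982, 433 of 9744 and 678 of 13259 tested genes. The opposite on TMM-scaled values, every SlowBKK library above, held in all 3 tissues for 1 member, GF14042 (9.17%, 8.05% and 9.57% of tested genes). With CPM on the column sum it held for GF14042 in the tubule and the body but not in the hindgut.

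**Figure D1:**
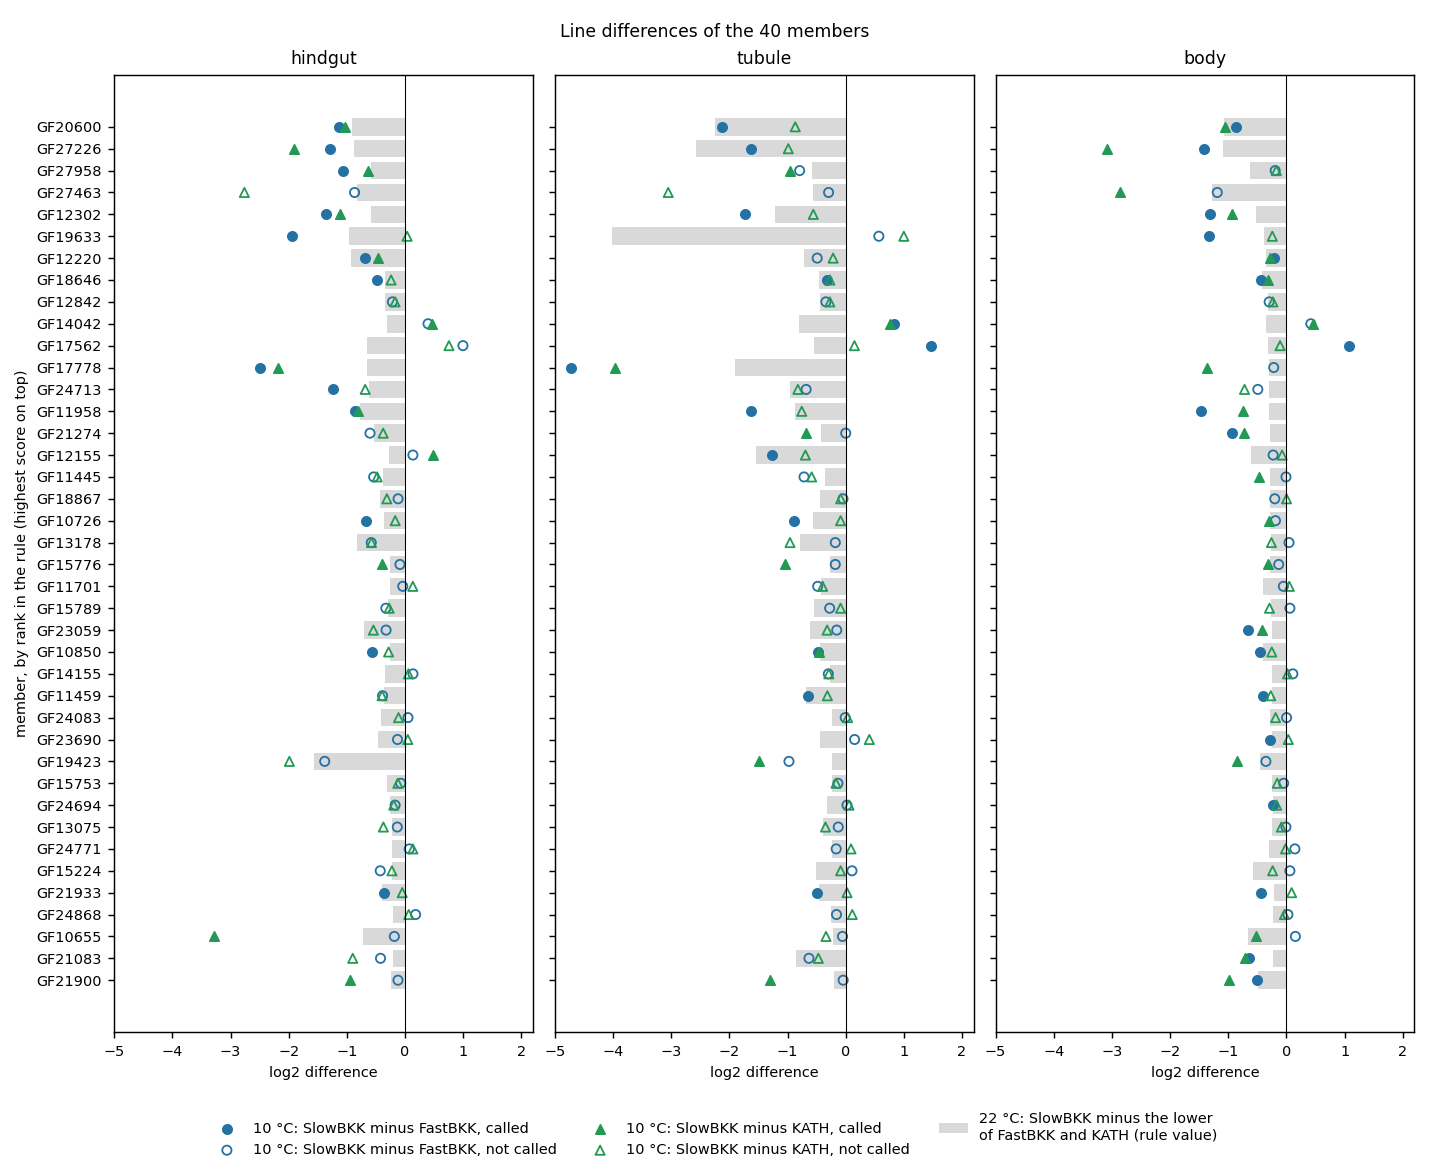
Log2 difference of each of the 40 members (rows, highest score on top) in hindgut, tubule and body. Circles are SlowBKK minus FastBKK and triangles SlowBKK minus KATH at 10 °C (n = 3 libraries per line, filled where edgeR's adjusted p was under 0.05), and grey bars are the control difference from the lower tolerant line that chose the genes. The filled symbols reach -4.73 for GF17778 in the tubule, most symbols lie within 1 unit of 0, and GF14042 lies to the right of 0 in every tissue at 10 °C.

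Members differed in how many of the 6 cold comparisons (3 tissues, each against FastBKK and against KATH) called them lower. At least 1 comparison did so for 26 of 40 members, against 28.5% of the 5752 genes eligible for the rule. For 5 of these members, GF20600, GF27226, GF12302, GF17778 and GF11958, 5 of the 6 did, against 0.417% of eligible genes with at least 5. Lower than both lines in at least 1 tissue were 13 members, against 6.76% of eligible genes. None was so in all 3 tissues (0 of 40), 6 were in 2 tissues (these 5 and GF12220), where at least 2 tissues held 0.73% of eligible genes, and 7 were in 1 tissue. The rule selected on the control libraries of the same lines. Of the 8 members with the highest scores 6 were lower than both lines in at least 1 cold tissue, against 7 of the other 32. The difference between these groups of members was not tested.

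GF27226 had large line differences in every tissue. Its cold hindgut held 11.4, 20.3 and 15.3 CPM in SlowBKK libraries, 29.8, 34.2 and 52.6 CPM in FastBKK and 59.8, 62.6 and 49.9 CPM in KATH. Its cold body held 2.30, 3.17 and 3.29 CPM in SlowBKK libraries, 9.73, 5.85 and 7.45 CPM in FastBKK and 26.6, 20.9 and 22.9 CPM in KATH. The cold tubule, where its level was low, had 0.860, 0.884 and 0.704 CPM in SlowBKK libraries, 1.06, 3.32 and 2.83 CPM in FastBKK and 1.52, 1.46 and 1.74 CPM in KATH. The SlowBKK libraries lay below all others in each of these tissues, and the KATH mean lay above the FastBKK mean in the hindgut and body but not in the tubule. In the body the log2 difference was -1.42 ± 0.20 (SE) from FastBKK and -3.09 ± 0.20 from KATH, an 8.53-fold lower level, with edgeR adjusted p = 0.00113 and 4.06e-06. In the hindgut the differences were -1.30 ± 0.24 and -1.91 ± 0.25 (edgeR adjusted p = 0.0149 and 0.00223). These 4 calls held without each single library. The tubule call against FastBKK, -1.64 ± 0.42 (edgeR adjusted p = 0.0496), was lost without any 1 of 8 libraries (adjusted p up to 0.162) and held only without FastBKK replicate 1, and against KATH it was -0.99 ± 0.41 (adjusted p = 0.157). At 22 °C its body level averaged 15.7 ± 1.71 CPM in SlowBKK, 34.1 ± 5.41 CPM in FastBKK and 60.8 ± 9.84 CPM in KATH (SD, n = 3 each), so the cold body means lie below the control ones in every line.

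GF11958 (FBgn0088997, scaffold 13266) was lower at 10 °C with little spread among SlowBKK libraries. Its cold hindgut libraries held 17.7, 15.7 and 19.2 CPM in SlowBKK libraries, 40.9, 27.8 and 28.2 CPM in FastBKK and 27.9, 28.6 and 33.5 CPM in KATH. Its cold body libraries held 13.7, 17.2 and 14.4 CPM in SlowBKK libraries, 43.7, 30.6 and 48.4 CPM in FastBKK and 23.8, 22.8 and 24.9 CPM in KATH. No SlowBKK value reached the lowest value of the other lines in either tissue. The body differences were -1.46 ± 0.15 from FastBKK and -0.74 ± 0.15 from KATH, and the hindgut ones -0.87 ± 0.16 and -0.81 ± 0.16, with edgeR adjusted p of 0.000173, 0.00504, 0.0149 and 0.0147. All 4 held without each single library. The cold tubule had 17.9, 17.2 and 15.8 CPM in SlowBKK libraries, 87.97, 35.2 and 27.96 CPM in FastBKK and 27.4, 25.6 and 30.5 CPM in KATH, and FastBKK replicate 1 was far above the rest. The tubule difference from FastBKK was -1.64 ± 0.37 (edgeR adjusted p = 0.0375), lost without SlowBKK replicate 2, 3 or 4 or FastBKK replicate 3 or KATH replicate 1 or 3 (adjusted p up to 0.131), and that from KATH was -0.76 ± 0.37 (adjusted p = 0.215). GF11958 and GF17778 are described because they had 5 lower calls, a choice made after their values were seen.

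GF12302 (FBgn0089339, scaffold 13266) was lower than FastBKK in every cold tissue. Its cold tubule held 15.5, 30.4 and 26.8 CPM in SlowBKK libraries, 61.8, 92.9 and 72.9 CPM in FastBKK and 32.1, 33.9 and 37.4 CPM in KATH. All 3 SlowBKK libraries lay below the KATH ones and these below the FastBKK ones. The tubule difference was -1.73 ± 0.25 from FastBKK (edgeR adjusted p = 0.00836, held without each single library) and -0.56 ± 0.24 from KATH (adjusted p = 0.172). In the cold body it had 24.5, 34.7 and 18.3 CPM in SlowBKK libraries, 69.9, 61.8 and 59.1 CPM in FastBKK and 52.1, 44.7 and 43.6 CPM in KATH. The differences were -1.32 ± 0.19 and -0.94 ± 0.18 (edgeR adjusted p = 0.00104 and 0.00434), both called and kept without each single library. Its cold hindgut libraries had 36.4, 14.7 and 32.8 CPM in SlowBKK libraries, 62.1, 87.95 and 66.3 CPM in FastBKK and 49.5, 72.1 and 57.3 CPM in KATH. The hindgut differences of -1.35 ± 0.31 and -1.12 ± 0.31 (edgeR adjusted p = 0.0289 and 0.044) were less firm. The first was lost without SlowBKK replicate 4 or FastBKK replicate 3 or 4 (adjusted p up to 0.0863) and the second without SlowBKK replicate 4 or FastBKK replicate 1, 3 or 4 or KATH replicate 1, 3 or 4 (adjusted p up to 0.121).

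GF20600, the member with the highest score, was lower in SlowBKK in the cold body, where it had 48.9, 29.9 and 59.5 CPM in SlowBKK libraries, 79.5, 73.5 and 94.1 CPM in FastBKK and 91.7, 87.3 and 92.1 CPM in KATH. The differences were -0.86 ± 0.19 and -1.06 ± 0.19 (edgeR adjusted p = 0.00976 and 0.00258) and held without each single library. In the cold hindgut it had 9.20, 12.4 and 12.8 CPM in SlowBKK libraries, 36.9, 20.8 and 18.2 CPM in FastBKK and 24.8, 20.3 and 23.3 CPM in KATH. SlowBKK overlapped neither other line in these tissues. The hindgut differences were -1.13 ± 0.25 and -1.03 ± 0.25 (edgeR adjusted p = 0.0265 and 0.0302). Against FastBKK the call was lost without SlowBKK replicate 1, 2 or 4 (adjusted p up to 0.0896), and against KATH without SlowBKK replicate 1, 2 or 4 or KATH replicate 1, 3 or 4 (adjusted p up to 0.097). Its cold tubule held 8.57, 4.95 and 3.03 CPM in SlowBKK libraries, 30.4, 20.9 and 18.1 CPM in FastBKK and 7.03, 11.2 and 11.2 CPM in KATH, and the highest SlowBKK library lay above the lowest KATH one. There the difference from FastBKK was -2.13 ± 0.39 (edgeR adjusted p = 0.0204), lost without SlowBKK replicate 3 or 4 or FastBKK replicate 4 (adjusted p up to 0.0843), and the difference from KATH was -0.87 ± 0.38 (adjusted p = 0.178). Its control tubule level averaged 17.3 ± 2.10 CPM in SlowBKK, 91.2 ± 19.3 CPM in FastBKK and 83.7 ± 16.1 CPM in KATH (SD, n = 3 each). The cold tubule mean of each line lies below the control mean of the same line.

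**Figure D2:**
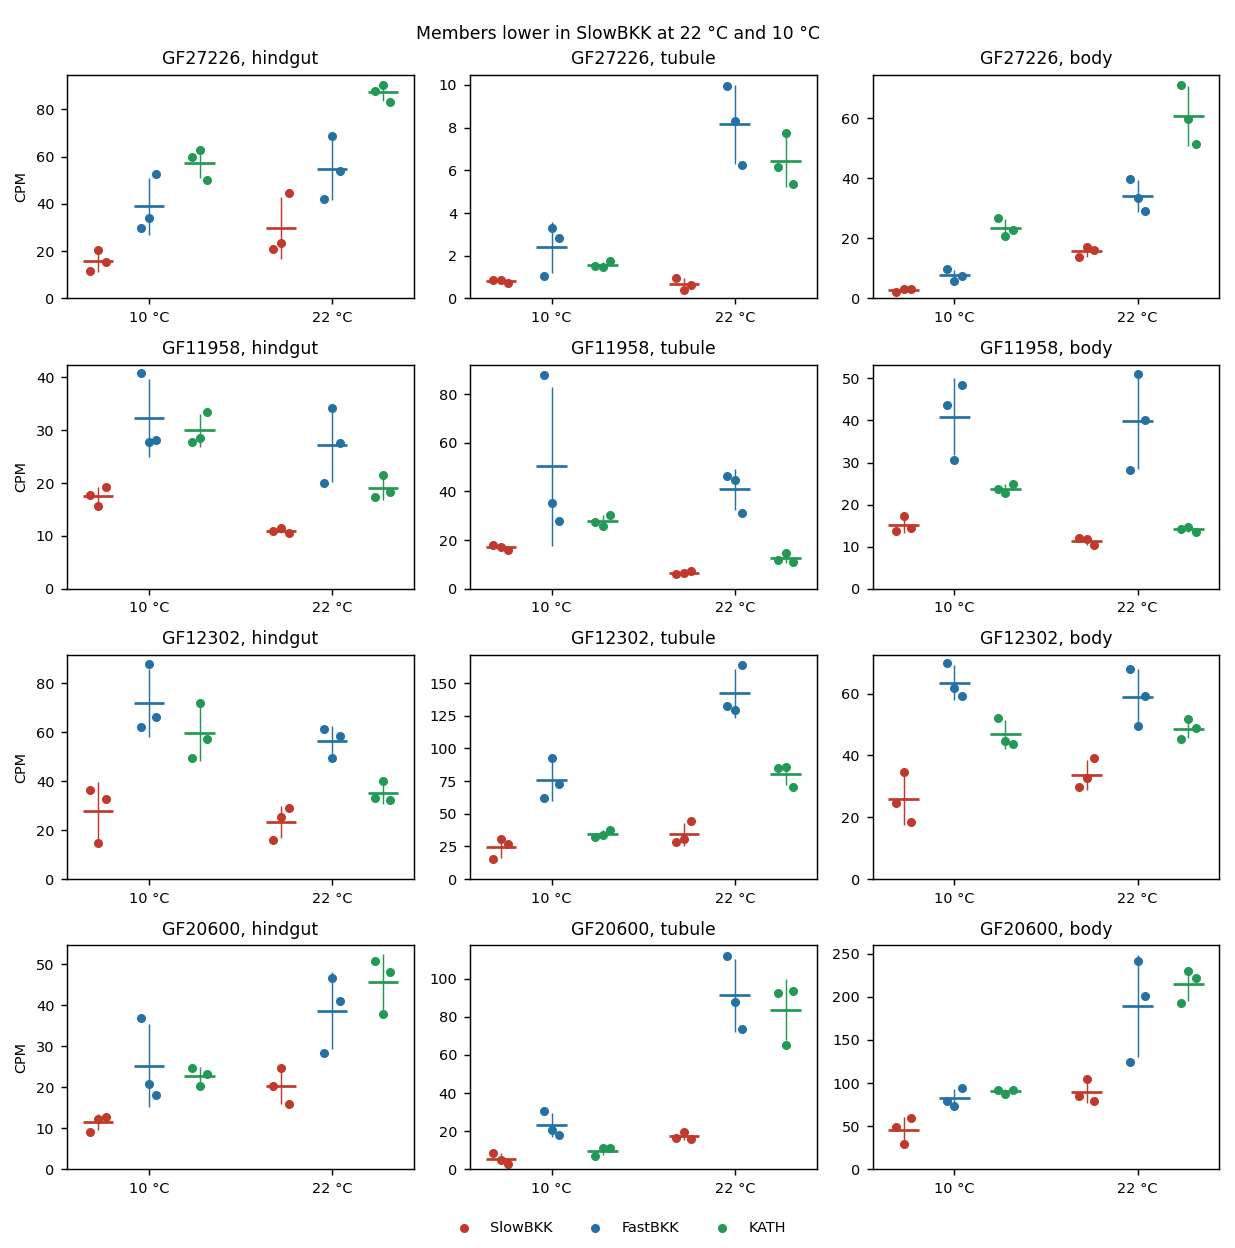
CPM of GF27226, GF11958, GF12302 and GF20600 (rows) in hindgut, tubule and body (columns) at 10 °C and 22 °C, with 1 point per library and lines for the mean ± SD of 3 libraries. At 10 °C the SlowBKK points (red, left) lie below FastBKK (blue) and KATH (green) in every hindgut and body panel, and the 22 °C points are those that chose the genes.

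GF17778 (FBgn0094796, scaffold 13340) had the largest called difference among the members. Its cold tubule libraries held 2.35, 2.81 and 2.30 CPM in SlowBKK libraries, 24.7, 107 and 55.6 CPM in FastBKK and 29.3, 37.1 and 47.1 CPM in KATH. Every SlowBKK library lay far below the lowest library of the other lines. The fitted differences were -4.73 ± 0.53 from FastBKK, 26.5-fold lower, and -3.97 ± 0.51 from KATH, 15.7-fold lower (edgeR adjusted p = 0.00468 and 0.00373), and both held without each single library. The control tubule averaged 157 ± 176 CPM in SlowBKK, 584 ± 76.4 CPM in FastBKK and 635 ± 106 CPM in KATH (SD, n = 3 each), and the 3 SlowBKK control libraries spread widely, at 72.2, 38.2 and 359 CPM. In the cold hindgut it had 2.10, 1.21 and 3.52 CPM in SlowBKK libraries, 6.72, 25.2 and 6.89 CPM in FastBKK and 7.72, 10.2 and 12.5 CPM in KATH. The differences there were -2.50 ± 0.58 and -2.19 ± 0.58 (edgeR adjusted p = 0.0298 and 0.0375). Those calls were lost without SlowBKK replicate 1 or 2 or FastBKK replicate 3 (adjusted p up to 0.0945) for FastBKK and without SlowBKK replicate 1 or 2 or KATH replicate 1, 3 or 4 (adjusted p up to 0.108) for KATH. Its cold body held 15.9, 6.45 and 6.55 CPM in SlowBKK libraries, 12.2, 9.98 and 11.1 CPM in FastBKK and 20.2, 19.4 and 31.2 CPM in KATH. There the SlowBKK and FastBKK libraries overlap (-0.22 ± 0.31, edgeR adjusted p = 0.659) and the difference from KATH was -1.37 ± 0.31 (adjusted p = 0.00882).

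GF12220 (FBgn0089259, scaffold 13266) was lower than both lines in the cold hindgut and the cold body by smaller amounts. It had 41.1, 32.8 and 40.4 CPM in SlowBKK libraries, 67.5, 56.6 and 61.9 CPM in FastBKK and 50.97, 55.2 and 48.5 CPM in KATH in the hindgut. The body had 81.99, 83.8 and 87.2 CPM in SlowBKK libraries, 92.7, 97.1 and 101 CPM in FastBKK and 92, 99.1 and 100.1 CPM in KATH. The hindgut differences were -0.69 ± 0.11 and -0.47 ± 0.11 and the body ones -0.22 ± 0.05 and -0.29 ± 0.05 (edgeR adjusted p = 0.0089, 0.025, 0.0148 and 0.00315). The hindgut call against KATH was lost without SlowBKK replicate 2 or 4 or KATH replicate 1 or 3 (adjusted p up to 0.075), and the body call against FastBKK without SlowBKK replicate 1 or FastBKK replicate 2 or 4 (adjusted p up to 0.0588). Its cold tubule had 58.5, 54.9 and 47.9 CPM in SlowBKK libraries, 95.1, 57.6 and 62.9 CPM in FastBKK and 59.8, 63.4 and 58.9 CPM in KATH. Neither difference was called there (-0.49 ± 0.18 and -0.22 ± 0.18, edgeR adjusted p = 0.126 and 0.451).

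GF27958 (FBgn0275181, scaffold 13266) was lower than both lines in the cold hindgut, with 7.67, 6.76 and 5.21 CPM in SlowBKK libraries, 13.1, 15.3 and 13.5 CPM in FastBKK and 10.1, 9.64 and 10.3 CPM in KATH. The difference was -1.07 ± 0.16 from FastBKK and -0.64 ± 0.16 from KATH (edgeR adjusted p = 0.00663 and 0.0322). The first held without each single library, and the second was lost without SlowBKK replicate 2 or 4 or FastBKK replicate 4 or KATH replicate 1, 3 or 4 (adjusted p up to 0.0791). Its cold tubule had 6.38, 3.21 and 4.84 CPM in SlowBKK libraries, 10.1, 6.73 and 7.01 CPM in FastBKK and 7.96, 10.2 and 9.12 CPM in KATH. There was a call against KATH (-0.96 ± 0.26, edgeR adjusted p = 0.0488) that was lost without SlowBKK replicate 3 or 4 or FastBKK replicate 3 or 4 or KATH replicate 1, 3 or 4 (adjusted p up to 0.145), and none against FastBKK (-0.79 ± 0.26, adjusted p = 0.104). The body did not separate the lines in the cold. It had 5.86, 10.2 and 5.88 CPM in SlowBKK libraries, 9.52, 6.15 and 9.12 CPM in FastBKK and 6.99, 10.1 and 6.38 CPM in KATH, with differences of -0.19 ± 0.26 and -0.17 ± 0.26 (edgeR adjusted p = 0.628 and 0.651), although the control body had averaged 10.01 ± 3.58 CPM in SlowBKK, 15.7 ± 4.94 CPM in FastBKK and 16.2 ± 7.03 CPM in KATH (SD, n = 3 each).

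GF18646 (FBgn0095664, scaffold 13340) was lower than both lines in the cold body, with 10.3, 11.2 and 11.2 CPM in SlowBKK libraries, 14.9, 15.03 and 13.8 CPM in FastBKK and 13.1, 12.2 and 13.3 CPM in KATH. The body differences were -0.45 ± 0.08 and -0.32 ± 0.08 (edgeR adjusted p = 0.00416 and 0.0157), and that against KATH was lost without SlowBKK replicate 1 or KATH replicate 4 (adjusted p up to 0.0623). It had 12.3, 11.2 and 13.4 CPM in SlowBKK libraries, 16.5, 16.98 and 18.7 CPM in FastBKK and 13.4, 14.7 and 14.6 CPM in KATH in the cold hindgut. The cold tubule had 10.8, 11.3 and 10.9 CPM in SlowBKK libraries, 13.9, 12.7 and 12.4 CPM in FastBKK and 12.6, 12.9 and 13.1 CPM in KATH. Against FastBKK the differences there were -0.48 ± 0.10 and -0.32 ± 0.08 (edgeR adjusted p = 0.0212 and 0.0455). The hindgut call was lost without SlowBKK replicate 1 or 2 or FastBKK replicate 3 or 4 (adjusted p up to 0.0878), and the tubule call without any 1 of the 9 libraries (adjusted p up to 0.165). Against KATH they were -0.24 ± 0.10 and -0.27 ± 0.08, not called (edgeR adjusted p = 0.15 and 0.0571).

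A pair of the 8 highest-scoring members had a wide spread between replicates and few called differences. GF27463 (FBgn0274686, scaffold 12943) had 2.64, 0.472 and 17.7 CPM in SlowBKK libraries, 19.6, 8.85 and 9.20 CPM in FastBKK and 42.6, 58.5 and 34.9 CPM in KATH in the cold hindgut. It had 0.417, 29.03 and 30.9 CPM in SlowBKK libraries, 42.4, 18.99 and 8.48 CPM in FastBKK and 172, 202 and 108 CPM in KATH in the cold tubule. The cold body had 4.79, 24.1 and 0.323 CPM in SlowBKK libraries, 25.8, 18.3 and 22.1 CPM in FastBKK and 73.1, 63.1 and 64.96 CPM in KATH. Every KATH library lay above every SlowBKK library, but the SlowBKK libraries of 1 tissue differed many-fold. Only the body difference from KATH was called, at -2.85 ± 0.74 (edgeR adjusted p = 0.0169), lost without SlowBKK replicate 1 (adjusted p up to 0.0618). The other 5 differences ranged from -3.05 ± 1.12 in the tubule against KATH to -0.30 ± 1.05 in the tubule against FastBKK (edgeR adjusted p = 0.115 and 0.889).

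GF19633 (FBgn0096640, scaffold 3801) met the minimum of 5 CPM in the tubule of FastBKK through 1 library. Its control tubule had 0.0250, 0.107 and 0 CPM in SlowBKK, 40.2, 0.0899 and 0 CPM in FastBKK and 5.92, 0.304 and 18.8 CPM in KATH, so that the FastBKK mean rests on replicate 2 alone. A count of 0 allows up to 3 counts, 0.0764 CPM in that SlowBKK library and 0.0870 CPM in that FastBKK library, by counting error only. In the cold tubule it had 15.3, 1.18 and 5.44 CPM in SlowBKK libraries, 0.779, 0.122 and 13.1 CPM in FastBKK and 10.6, 0 and 0.287 CPM in KATH. The differences were 0.57 ± 1.90 and 1.00 ± 1.92 (edgeR adjusted p = 0.882 and 0.771). The KATH library at 0 (replicate 3) could hold up to 0.0858 CPM, again by counting error. The 283 hindgut-restricted genes stood at 0.283% of their hindgut level in SlowBKK cold tubule replicate 2, where GF19633 had 15.3 CPM, and at 1.40% in KATH replicate 4, where it had 0.287 CPM. They stood at 0.333% in FastBKK control tubule replicate 2, the library with 40.2 CPM and the highest such level of the 9 control tubule libraries. The part of hindgut carry-over in its tubule level was not tested. Its cold hindgut had 172, 231 and 116 CPM in SlowBKK libraries, 368, 675 and 996 CPM in FastBKK and 150.1, 208 and 141 CPM in KATH. Its cold body libraries held 37.4, 25.98 and 23.4 CPM in SlowBKK libraries, 71.4, 58.6 and 85.97 CPM in FastBKK and 21.7, 38.1 and 37.5 CPM in KATH. It was lower than in FastBKK in both, with log2 differences of -1.95 ± 0.37 and -1.34 ± 0.23 (edgeR adjusted p = 0.0149 and 0.00275), and the hindgut call was lost without SlowBKK replicate 1 (adjusted p up to 0.0511). From KATH it differed by 0.03 ± 0.36 and -0.24 ± 0.23, not called (edgeR adjusted p = 0.96 and 0.458).

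The remaining members lower than both lines in 1 tissue were GF21274, GF23059, GF21083 and GF21900 in the body and GF10850 in the tubule. In the cold body GF21274 differed by -0.94 ± 0.17 and -0.73 ± 0.17, GF23059 by -0.67 ± 0.09 and -0.42 ± 0.09, GF21083 by -0.65 ± 0.14 and -0.70 ± 0.14 and GF21900 by -0.50 ± 0.10 and -0.98 ± 0.10 from FastBKK and from KATH, in that order. All 8 of these calls held without each single library. GF10850 differed in the cold tubule by -0.48 ± 0.10 and -0.47 ± 0.10 (edgeR adjusted p = 0.0286 and 0.0199), calls that were lost without SlowBKK replicate 2, 3 or 4 or FastBKK replicate 3 or 4 (adjusted p up to 0.12) and without SlowBKK replicate 2 or 4 or KATH replicate 1 or 3 (adjusted p up to 0.0739). Another 13 members had at least 1 lower call but none against both lines in 1 tissue, among them GF10655, whose hindgut difference from KATH was -3.28 ± 0.34.

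A few members were higher in SlowBKK at 10 °C, the opposite of the order by which they were chosen. GF14042 (FBgn0091069, scaffold 12916), one of the 9 members chosen under every setting of the rule, had 53.9, 59.4 and 69.1 CPM in SlowBKK libraries, 54.3, 43.8 and 41.7 CPM in FastBKK and 47.9, 44.5 and 36.99 CPM in KATH in the cold hindgut. It had 72.1, 57.4 and 77.5 CPM in SlowBKK libraries, 51.1, 28.6 and 30.6 CPM in FastBKK and 42.2, 39.1 and 37.4 CPM in KATH in the cold tubule. Body libraries in the cold had 51.96, 49.7 and 51.03 CPM in SlowBKK libraries, 42.02, 42.4 and 27.9 CPM in FastBKK and 35.6, 37.1 and 31.8 CPM in KATH. After TMM scaling every SlowBKK library lay above every library of the other lines in all 3 tissues. The tubule differences were 0.83 ± 0.21 from FastBKK and 0.76 ± 0.21 from KATH, and the differences from KATH in the hindgut and the body were 0.46 ± 0.13 and 0.46 ± 0.14 (edgeR adjusted p = 0.0476, 0.0491, 0.0498 and 0.0323). From FastBKK in the hindgut and the body it differed by 0.39 ± 0.13 and 0.42 ± 0.14, not called (edgeR adjusted p = 0.0939 and 0.0557). All 4 calls depended on single libraries. The hindgut call was lost without SlowBKK replicate 1, 2 or 4 or FastBKK replicate 3 or 4 or KATH replicate 1, 3 or 4 (adjusted p up to 0.139), and the body call without SlowBKK replicate 1 or 4 or KATH replicate 2, 3 or 4 (adjusted p up to 0.111). The tubule calls were lost without SlowBKK replicate 2, 3 or 4 or FastBKK replicate 3 or 4 or KATH replicate 1, 3 or 4 (adjusted p up to 0.152) for FastBKK, and without SlowBKK replicate 2, 3 or 4 or FastBKK replicate 4 or KATH replicate 1, 3 or 4 (adjusted p up to 0.147) for KATH. These 4 differences stayed positive whichever library was left out.

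The cold mean of GF14042 lay above its control mean in every line and tissue. Its control hindgut averaged 7.93 ± 0.323 CPM in SlowBKK, 10.01 ± 2.08 CPM in FastBKK and 14.4 ± 1.84 CPM in KATH (SD, n = 3 each). Its control tubule averaged 7.21 ± 0.586 CPM in SlowBKK, 12.99 ± 4.27 CPM in FastBKK and 14.9 ± 3.15 CPM in KATH. Its control body averaged 11.8 ± 1.13 CPM in SlowBKK, 16.2 ± 3.27 CPM in FastBKK and 15.2 ± 1.19 CPM in KATH. The SlowBKK mean was thus the lowest of the 3 lines at 22 °C and the highest at 10 °C in every tissue. Because the control order is part of the choice, and the control libraries would enter any test of the response to cold, the difference in response between lines was not tested.

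GF17562 (FBgn0094580, scaffold 13340), the member with the highest tubule level, was higher in SlowBKK than in FastBKK in the cold tubule and the cold body. It had 4510, 4360 and 4318 CPM in SlowBKK libraries, 2109, 1114 and 1292 CPM in FastBKK and 3579, 2325 and 5628 CPM in KATH in the tubule. The body had 267, 208 and 311 CPM in SlowBKK libraries, 119.9, 116 and 131 CPM in FastBKK and 295, 239 and 267 CPM in KATH. FastBKK was the low line in both, and SlowBKK overlapped KATH. The difference from FastBKK was 1.47 ± 0.33 for the tubule and 1.08 ± 0.13 for the body (edgeR adjusted p = 0.0363 and 0.00042). The body call held without each single library, and the tubule call was lost without SlowBKK replicate 2, 3 or 4 or FastBKK replicate 3 or 4 or KATH replicate 1 (adjusted p up to 0.118). In the cold hindgut it had 498, 497 and 624 CPM in SlowBKK libraries, 308, 264 and 246 CPM in FastBKK and 198, 200.3 and 534 CPM in KATH. The differences there were 0.99 ± 0.35 and 0.75 ± 0.35 (edgeR adjusted p = 0.111 and 0.186). GF12155 was higher than KATH in the cold hindgut (0.48 ± 0.10, edgeR adjusted p = 0.0174) and lower than FastBKK in the cold tubule (-1.27 ± 0.31, adjusted p = 0.0437). The hindgut call was lost without SlowBKK replicate 4 or KATH replicate 1 or 4 (adjusted p up to 0.0622), and the tubule call without SlowBKK replicate 2, 3 or 4 or FastBKK replicate 3 or 4 or KATH replicate 1, 3 or 4 (adjusted p up to 0.131). Mean levels of GF12155 were 528 CPM (SlowBKK) and 485 CPM (FastBKK) in the cold hindgut, against 5.4 and 12.4 CPM in the cold tubule. FastBKK cold tubule replicate 1 held 0.775% of the level of the hindgut-restricted genes. SlowBKK cold tubule libraries held 0.283%, 0.278% and 0.241%, and FastBKK replicates 3 and 4 held 0.0774% and 0.249%. The part of hindgut carry-over in the tubule level of GF12155 was not tested. These 3 genes were singled out after their values were seen.

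**Figure D3:**
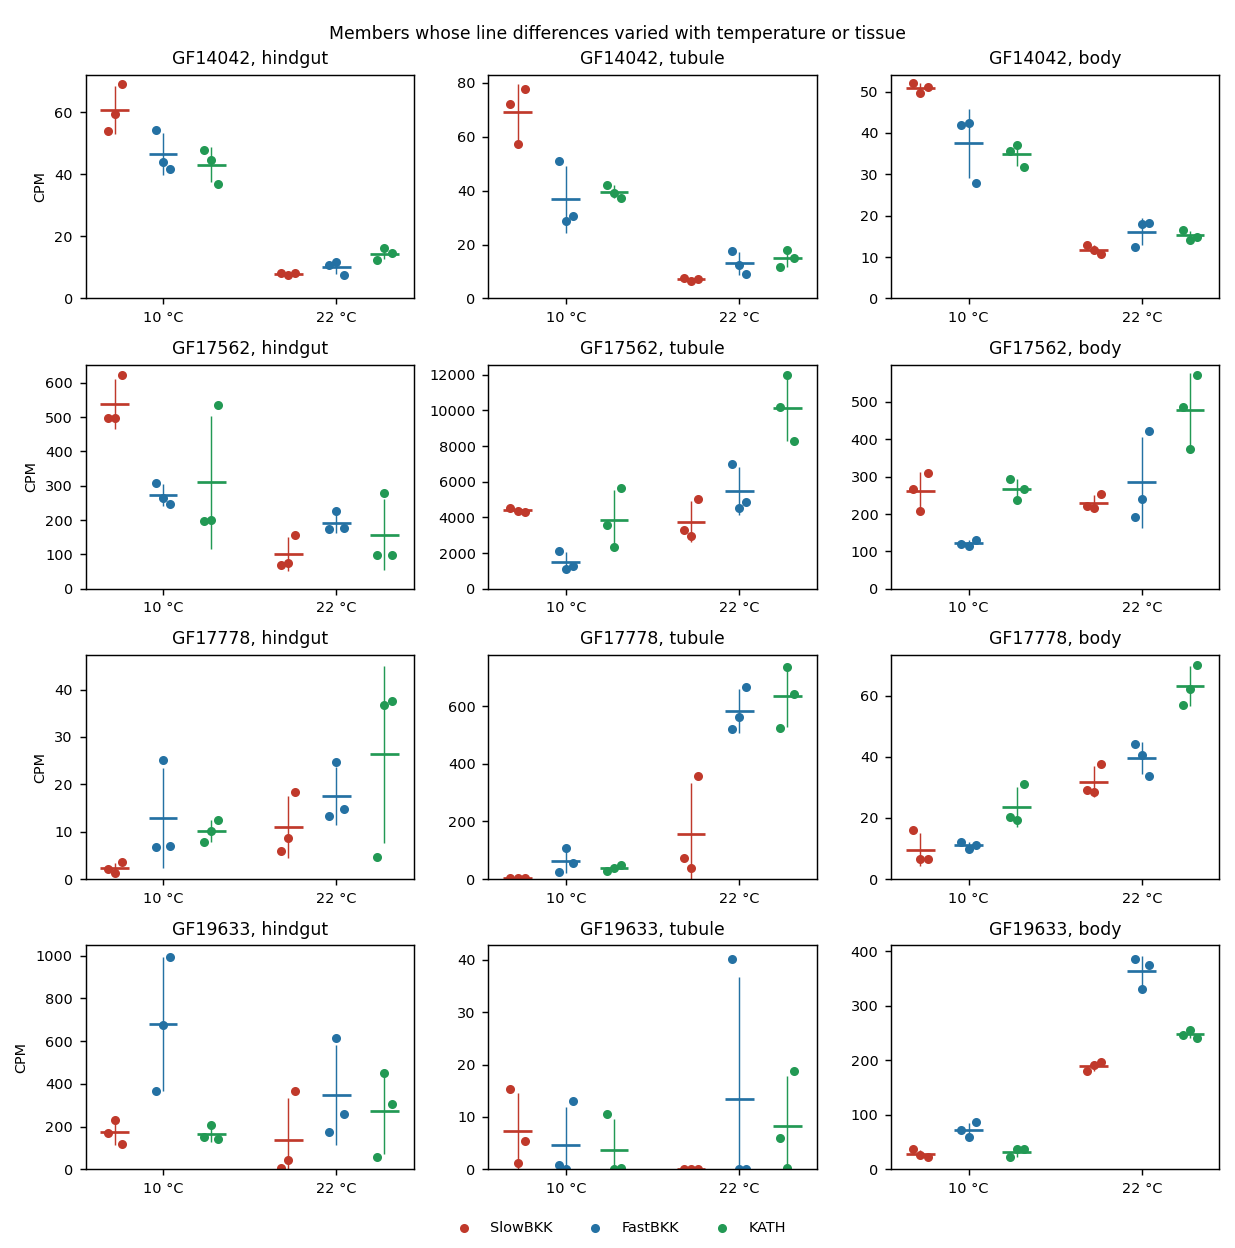
CPM of GF14042, GF17562, GF17778 and GF19633 (rows) in hindgut, tubule and body (columns) at 10 °C and 22 °C, with 1 point per library and lines for the mean ± SD of 3 libraries. SlowBKK (red, left) has the highest mean of GF14042 at 10 °C and the lowest at 22 °C in each tissue, its cold tubule points of GF17778 lie near 0, and GF19633 spreads widely within groups of the hindgut and tubule.

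For 14 members no cold comparison called a lower level in SlowBKK, and for 12 of these there was no call in either direction (12 of 40 members, against 51.5% of eligible genes). The 6 with the fewest calls and the lowest scores were GF24868, GF15224, GF24771, GF13075, GF15753 and GF24083. GF24868 (FBgn0101861, scaffold 13337) had 44.6, 38.5 and 37.8 CPM in SlowBKK libraries, 37.3, 33.5 and 37.1 CPM in FastBKK and 38.1, 38.05 and 37.3 CPM in KATH in the cold hindgut. It had 43.6, 37.8 and 34.2 CPM in SlowBKK libraries, 50.2, 35.4 and 37.1 CPM in FastBKK and 32.96, 33.9 and 36.97 CPM in KATH in the cold tubule. The cold body had 25.04, 20.5 and 27.8 CPM in SlowBKK libraries, 22.5, 23.2 and 25.2 CPM in FastBKK and 22.4, 24.1 and 24.4 CPM in KATH. In the hindgut each SlowBKK library lay above each FastBKK library and overlapped KATH, while in the tubule and body the lines overlapped. Its 6 differences lay between -0.16 ± 0.15 and 0.18 ± 0.09, with edgeR adjusted p = 0.54 and 0.252 at these ends.

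GF15224 (FBgn0092249, scaffold 12916) had differences of opposite sign in the dissected tissues against FastBKK. It had 12.9, 14.4 and 13.9 CPM in SlowBKK libraries, 22.9, 14.5 and 18.6 CPM in FastBKK and 13.2, 15.4 and 18.6 CPM in KATH in the cold hindgut. Its cold tubule had 20.9, 22.97 and 20.7 CPM in SlowBKK libraries, 19.3, 20.2 and 17.2 CPM in FastBKK and 20.4, 22.4 and 23.7 CPM in KATH. Its cold body libraries held 17.3, 14.1 and 22.6 CPM in SlowBKK libraries, 16.02, 18.6 and 16.3 CPM in FastBKK and 20.9, 18.6 and 20.5 CPM in KATH. The hindgut difference from FastBKK was -0.43 ± 0.18 and the tubule one 0.11 ± 0.10, neither called (edgeR adjusted p = 0.167 and 0.536). GF24771 (FBgn0101764, scaffold 13337) had 17.2, 16.5 and 15 CPM in SlowBKK libraries, 14.2, 15.6 and 17.2 CPM in FastBKK and 15.3, 14.4 and 13.9 CPM in KATH in the cold hindgut. It had 18.9, 18.2 and 17.3 CPM in SlowBKK libraries, 23.6, 16.1 and 18.2 CPM in FastBKK and 16.3, 16.2 and 17.1 CPM in KATH in the cold tubule. Body libraries in the cold had 15.9, 14.8 and 19.9 CPM in SlowBKK libraries, 14.6, 15.2 and 15.2 CPM in FastBKK and 14.97, 16.9 and 16.4 CPM in KATH. Its differences ranged between -0.16 ± 0.13 for the tubule and 0.14 ± 0.11 for the body, both against FastBKK (edgeR adjusted p = 0.468 and 0.354).

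GF13075 (FBgn0090108, scaffold 13266) had 13.9, 11.8 and 11.4 CPM in SlowBKK libraries, 12.98, 13.9 and 14.3 CPM in FastBKK and 16.5, 14.7 and 15.9 CPM in KATH in the cold hindgut. It had 12.1, 11.1 and 9.26 CPM in SlowBKK libraries, 14, 8.95 and 10.9 CPM in FastBKK and 12.5, 13.4 and 14.4 CPM in KATH in the cold tubule. The cold body had 12.2, 14.1 and 14.4 CPM in SlowBKK libraries, 13.02, 12.3 and 14.9 CPM in FastBKK and 14.3, 12.9 and 13.5 CPM in KATH. Its furthest difference was -0.37 ± 0.12, in the hindgut against KATH (edgeR adjusted p = 0.063), and the body differences were -0.01 ± 0.10 and -0.09 ± 0.10. GF15753 (FBgn0092777, scaffold 12916) had 159, 161 and 168 CPM in SlowBKK libraries, 186, 149 and 184 CPM in FastBKK and 172, 176 and 171 CPM in KATH in the cold hindgut. It had 124, 115 and 116 CPM in SlowBKK libraries, 153, 104 and 112 CPM in FastBKK and 129.5, 132 and 125 CPM in KATH in the cold tubule. Its cold body libraries held 109, 113 and 123 CPM in SlowBKK libraries, 111, 121 and 119 CPM in FastBKK and 128, 114 and 121 CPM in KATH. All 6 of its differences were negative, and the furthest from 0 was -0.17 ± 0.13, in the tubule against KATH (edgeR adjusted p = 0.436). GF24083 (FBgn0101077, scaffold 13337) had 42.2, 39.8 and 40.5 CPM in SlowBKK libraries, 41.3, 38.3 and 39.95 CPM in FastBKK and 46.1, 43.01 and 40.6 CPM in KATH in the cold hindgut. It had 32.3, 31.4 and 31.5 CPM in SlowBKK libraries, 38.4, 26.1 and 26.5 CPM in FastBKK and 32.9, 29.7 and 27.9 CPM in KATH in the cold tubule. Body libraries in the cold had 28.6, 29.5 and 31.1 CPM in SlowBKK libraries, 25.9, 31.7 and 30.1 CPM in FastBKK and 30.97, 33.3 and 31.7 CPM in KATH. Its difference nearest the threshold was -0.19 ± 0.08, in the body against KATH (edgeR adjusted p = 0.107).

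The other 6 members with no call in either direction were GF12842, GF18867, GF13178, GF11701, GF15789 and GF14155. GF12842, chosen under every setting of the rule, had 6 negative differences, and in the body against FastBKK it was -0.30 ± 0.10 (edgeR adjusted p = 0.052). GF13178 reached -0.96 ± 0.37 in the tubule against KATH with edgeR adjusted p = 0.13. A difference that missed the threshold does not show that the lines were alike.

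The rule treats FastBKK and KATH alike, so it favours no direction of the difference between them at 10 °C. The control levels of both lines did enter the choice. KATH and FastBKK differed for 4 members in the hindgut (2 lower and 2 higher in KATH, where 8.28% of tested genes differed), 7 in the tubule (3 lower and 4 higher, beside 9.72%) and 10 in the body (4 lower and 6 higher, beside 23.4%). With no scaling beyond the library total the body calls over all genes were 2182 lower and 1182 higher in KATH, against 1504 and 1597 with TMM scaling. Without KATH replicate 1 the hindgut count became 2, and the tubule count became 2 without FastBKK replicate 3 or 4 or KATH replicate 1 and 4 without KATH replicate 3. In the hindgut the smallest adjusted p belonged to GF10655 (FBgn0087696, scaffold 13337), with 73.2, 37.2 and 76.6 CPM in KATH libraries, 7.44, 9.17 and 5.98 CPM in FastBKK and 8.69, 4.81 and 6.15 CPM in SlowBKK. KATH lay above FastBKK by 3.09 ± 0.33, 8.54-fold (edgeR adjusted p = 0.0013, held without each single library), while SlowBKK minus FastBKK was -0.18 ± 0.32. Cold tubule libraries of this gene held 4.99, 4.21 and 5.27 CPM in KATH libraries, 5.12, 3.41 and 3.10 CPM in FastBKK and 4.04, 3.35 and 4.41 CPM in SlowBKK. The cold body had 13.4, 11.9 and 10.2 CPM in KATH libraries, 6.94, 7.87 and 8.40 CPM in FastBKK and 7.57, 9.41 and 9.26 CPM in SlowBKK. The tubule difference of KATH minus FastBKK was 0.28 ± 0.22 and the body one 0.68 ± 0.13 (edgeR adjusted p = 0.444 and 0.00477).

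In the tubule the smallest adjusted p of KATH minus FastBKK belonged to GF15776 (FBgn0092800, scaffold 12916), which had 28.2, 28.6 and 33.1 CPM in KATH libraries, 16.2, 16.7 and 15.6 CPM in FastBKK and 16.3, 14.3 and 14.6 CPM in SlowBKK. KATH was the high line there, by 0.86 ± 0.10 over FastBKK (edgeR adjusted p = 0.00271), and SlowBKK lay -1.04 ± 0.10 from KATH and -0.18 ± 0.10 from FastBKK. It had 27.9, 25.7 and 24.7 CPM in KATH libraries, 20.3, 21.7 and 23.2 CPM in FastBKK and 20.8, 18.4 and 21.6 CPM in SlowBKK in the cold hindgut. Its cold body libraries held 13.5, 12.7 and 13.01 CPM in KATH libraries, 11.5, 11.9 and 12.7 CPM in FastBKK and 9.81, 10.9 and 12.7 CPM in SlowBKK. In these tissues KATH minus FastBKK was 0.31 ± 0.09 and 0.18 ± 0.10 (edgeR adjusted p = 0.0782 and 0.222). In the body it was GF27226, at 1.68 ± 0.18 (edgeR adjusted p = 0.000124). GF10726 went the other way, with tubule and hindgut differences of -0.80 ± 0.12 and -0.50 ± 0.11 for KATH minus FastBKK. SlowBKK minus FastBKK was -0.88 ± 0.12 and -0.67 ± 0.11 there (edgeR adjusted p = 0.00889, 0.0293, 0.00834 and 0.0106). Its hindgut call between KATH and FastBKK was lost without FastBKK replicate 3 or 4 or KATH replicate 1, 3 or 4 (adjusted p up to 0.113).

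The same rule was applied with each of the other lines in the place of SlowBKK, giving 40 genes lowest in FastBKK and 40 lowest in KATH. The highest score was 0.91 for SlowBKK, 1.66 for FastBKK and 2.74 for KATH, and the score of the 40th gene was 0.21, 0.12 and 0.39. At 10 °C the genes called lower than both other lines numbered 7 of 40 for SlowBKK, 3 for FastBKK and 24 for KATH in the hindgut. Tubule counts were 2, 5 and 24, and body counts 10, 15 and 27, for the lines in the same order. Over all genes tested in the hindgut, the shares called lower than both were 1.89% for SlowBKK, 0.728% for FastBKK and 2.06% for KATH. Tubule shares were 1.46%, 0.903% and 2.24%, and body shares 3.97%, 3.67% and 4.95%, in that order. The 3 lists share libraries, and the difference between them was not tested.

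**Figure D4:**
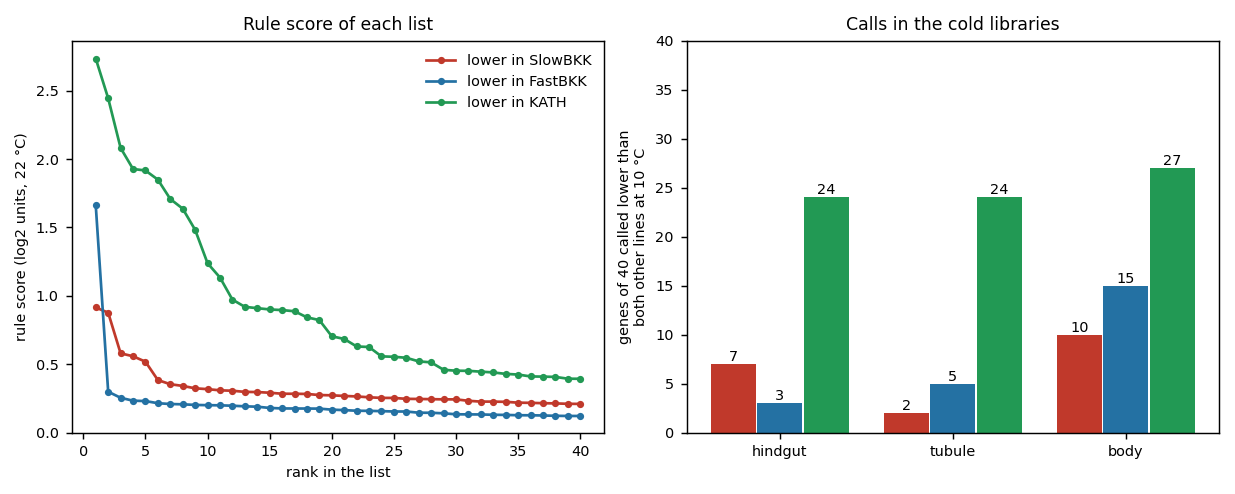
Left, score of each gene by rank in the lists of 40 genes lowest at 22 °C in SlowBKK, FastBKK and KATH. Right, number of those 40 genes called lower at 10 °C than both other lines (edgeR, adjusted p under 0.05) in each tissue, which is 7, 2 and 10 for SlowBKK in hindgut, tubule and body and at least 24 for KATH in each tissue.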

How the data were processed

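Total RNA of male D. ananassae was sequenced in 54 libraries made with poly-A enrichment, as the labels' protocols state. The deposited table holds whole-number counts per gene and library for 14365 genes, beside each gene's identifier, symbol, scaffold and length, per the file headers. FastQC 0.11.9 is named in the submitters' processing notes, and the aligner, counter, genome build, annotation version and use of strand are not given in the sources used here. Reads shared by near-identical or overlapping genes, or by genes on opposite strands, may therefore have been split or merged by the authors' counting. Gene length is another deposited column and served only to describe the members. Every count column matched the label of 1 library.

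Printed levels are CPM on the column sum. Cold libraries were fitted per tissue (9 libraries, 1 coefficient per line) with edgeR 4.0.16 in R 4.3.3, using filterByExpr, TMM scaling and the two-sided quasi-likelihood F test, with Benjamini-Hochberg adjustment over all genes tested within each of the 9 contrasts. Fitted values are log2 differences ± SE. The SE was computed as the absolute log2 difference divided by the square root of the F statistic. Control libraries entered no test of the members in the main fit, since they chose them, and no cold response was tested. They entered only the alternative fit of all 18 libraries of a tissue. The members and lists were chosen with earlier results of these data known. Members named with values are the 8 with the highest scores, the 6 with the fewest calls, and the smallest adjusted p between KATH and FastBKK in each tissue, and the others were named after their values were seen.

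Replicate pairs differed far more than counts drawn from 1 library would, with a chi-square per degree of freedom of at least 28.0, 40.0 and 11.0 for hindgut, tubule and body, so no library was counted as a duplicate. Floors and carry-over values cover counting error only, since no molecular identifiers are given. The biological coefficient of variation of the cold libraries was 20.2%, 33.1% and 10.1% for the same tissues. The fit was tested on simulated data. Alternatives were RLE scaling, no scaling beyond the library total, no filter, DESeq2 1.42.0, all 18 libraries of a tissue, only the 2 groups compared, a replicate block, a fold change over 2, and leaving out each library. The reference gene table matched 0 of the identifiers, so the counts by gene product and the tissue markers that had been planned were not run.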

Additional observations from a re-analysis of the deposited data

Results flagged for a closer look

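Some members were lower in SlowBKK in every control library and higher in every cold library than 1 of the other lines, on CPM. Each member was screened in each tissue against each other line, and the share of all genes with this pattern was not counted. The list is therefore not a trait of the members. On TMM-scaled values, SlowBKK cold libraries lay above all others for 9.17% (hindgut), 8.05% (tubule) and 9.57% (body) of tested genes. The control order was set by the choice of genes, and the difference between temperatures was not tested, because the control libraries chose them. GF14042 showed this change of order in 4 comparisons, with cold log2 differences of 0.46 from KATH in the hindgut, 0.83 from FastBKK and 0.76 from KATH in the tubule, and 0.46 from KATH in the body. GF17562 showed it against FastBKK in the hindgut (0.995, not called at 10 °C by edgeR) and GF12155 against KATH in the hindgut (0.48, called).

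Smaller cold differences of this kind were those of GF14155 from FastBKK in the body (0.11), GF23690 from KATH in the tubule (0.41) and the body (0.0322), GF24771 from KATH in the tubule (0.09), GF15224 from FastBKK in the tubule (0.11) and GF24868 from FastBKK in the hindgut (0.18). None of these 6 differences was called at 10 °C by edgeR. GF15224 also had differences of opposite sign in the cold libraries of the dissected tissues, where every SlowBKK library lay below every FastBKK library in the hindgut (-0.43) and above every one in the tubule (0.11). The difference between the tissues was not tested.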

How the results depend on the processing

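Every library held at least 30.7 M counts and each group had 3 libraries, and the spread between pools was widest in the tubule. The parts of depth and of this spread in the precision were not tested. The labels do not say whether same-numbered libraries belong together, and the main fit did not pair them. Deviations of same-numbered cold libraries correlated between -0.10 and 0.12 (hindgut), -0.27 and 0.46 (tubule) and -0.02 and 0.08 (body). Those of different-numbered ones correlated between -0.26 and 0.19 (hindgut), -0.40 and 0.44 (tubule) and -0.07 and 0.07 (body). These values cannot settle whether the libraries were paired. With the replicate block, members lower than FastBKK, KATH and both became 6, 5 and 3 in the hindgut, and in the tubule those lower than FastBKK and KATH became 4 and 3. The block moved no other count by over 1.5 times. Requiring a fold change over 2 left 7, 5 and 4 hindgut, 6, 4 and 1 tubule and 4, 4 and 1 body members, and 2, 3 and 4 members differed between KATH and FastBKK. Fitting only the 2 groups left 3 hindgut members lower than both and 6 tubule members lower than FastBKK. DESeq2 called 7 members between KATH and FastBKK in the hindgut and 6 lower than both in the tubule. Tubule members lower than FastBKK numbered 6 with no filter and 7 with no scaling beyond the library total, an alternative added after seeing the data. With a minimum of 1 CPM the rule chose 15 of the 40 again. RLE scaling and the fit of all 18 libraries moved no count of members by over 1.5 times, and the cause of the other moves was not tested. That fit of 18 libraries takes in the control libraries that chose the members.

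Leaving out 1 cold library gave 7 to 13 hindgut members lower than FastBKK, 4 to 9 lower than KATH, 2 to 6 lower than both and 2 to 4 differing between KATH and FastBKK. In the tubule the ranges were 3 to 9, 2 to 11, 1 to 4 and 2 to 8, and in the body 13 to 17, 13 to 18, 9 to 12 and 8 to 12. Members with every SlowBKK library below the others on TMM-scaled values numbered 13 to 17 in the hindgut and the tubule and 14 to 17 in the body. Leaving out 1 control library, the rule chose 33 to 39 members again. With no scaling, calls over all genes moved to 1090 lower and 2655 higher for SlowBKK minus KATH in the body (1750 and 1693 with TMM), 2182 and 1182 for KATH minus FastBKK in the body (1504 and 1597) and 285 and 538 for SlowBKK minus FastBKK in the tubule (404 and 365).

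Signs turned for small or noisy differences, none of them called. With the block, the difference from FastBKK became 0.88 for GF27463 and 0.0949 for GF24083 in the tubule and 0.0005 for GF15753 in the body, and that of GF19633 from KATH in the hindgut became -0.0889. With no scaling, body differences became 0.0484 (GF24868) and 0.0672 (GF24771) from KATH and 0.013 (GF13075) from FastBKK, and GF24083 in the tubule became 0.0653 from FastBKK. GF24083 there was 0.004 with no filter and 0.0022 with all 18 libraries. Leaving out 1 library gave SlowBKK minus FastBKK ranges in the tubule of -0.72 to 0.45 (GF27463), -0.62 to 3.96 (GF19633), -0.27 to 0.0008 (GF24868), -0.26 to 0.0426 (GF13075), -0.23 to 0.041 (GF15753) and -0.0942 to 0.18 (GF24083). In the body they were -0.0726 to 0.14 (GF24868), -0.13 to 0.21 (GF15224), -0.0603 to 0.0675 (GF13075) and -0.0717 to 0.0693 (GF24083), and in the hindgut -0.0008 to 0.14 (GF24771). SlowBKK minus KATH gave -0.50 to 0.0516 (GF27958), -0.13 to 0.0779 (GF24868) and -0.15 to 0.0715 (GF24771) in the body, -0.23 to 0.26 (GF19633) and -0.0362 to 0.12 (GF24868) in the hindgut, and -0.19 to 5.50 (GF19633), -0.0036 to 0.19 (GF24868) and -0.0427 to 0.0881 (GF24083) in the tubule.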
